A study of Homo sapiens with 8 samples.

Results

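Described here are 39 genes of the actin cytoskeleton and of focal adhesions in LX-2 cells, an established human hepatic stellate cell line. They were chosen by name for their roles, with earlier results of these data known. All 39 were found by matching each symbol in the 8 count files, among 16796 listed genes. The study compared LX-2 cells given the vehicle DMSO (control) with LX-2 cells given 50 µM OSMI-1, left on for 24 h (OGTi), by RNA-seq of 4 biological replicates of each. OSMI-1 is a small-molecule inhibitor of OGT, the enzyme that attaches O-linked N-acetylglucosamine to nuclear and cytoplasmic proteins. Both were kept in medium with 5% fetal bovine serum, and all 8 libraries came from the same line. The p-values therefore measure the spread among replicates of that line, for fold changes after differences between replicate numbers were removed.

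Actin monomers assemble into filaments that crosslinkers such as filamin and α-actinin tie into bundles and networks, and non-muscle myosin II pulls on these filaments to make the cell contractile. At focal adhesions, talin, kindlin, vinculin and tensin connect the filaments to integrins, which hold the extracellular matrix. RhoA, Rac1 and CDC42 are small GTPases that switch assembly and contraction on through formins, ROCK and LIM kinases, and hepatic stellate cells are known to build stress fibres and adhesions when they become myofibroblasts.

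The libraries held 24166756 to 28201215 expected counts each, with control and OGTi overlapping in depth. Of the 8 stellate and mesenchymal markers, 6 (COL1A1, COL1A2, PDGFRB, ACTA2, VIM and THY1) had over 100 counts in every library, whereas LUM and DCN had at most 6 counts. The 4 markers of quiescent stellate cells summed to at most 3.36 CPM (counts scaled to the library total). Summed mesenchymal marker levels were 6770 to 7670 CPM in control and 5380 to 6290 CPM in OGTi. Among markers of other cells, CD68 stood at 91.1 to 146 CPM in control and 215 to 368 CPM in OGTi. The monocyte gene CD14 was at 1.7 to 3.32 CPM in control and 1.64 to 3.6 CPM in OGTi. The leukocyte gene PTPRC did not exceed 0.414 CPM or 10 counts in any library. The part of the CD68 difference in the results below was not tested. Of 5 hepatocyte markers, only APOA1 was in the files, with at most 1 count. The endothelial and epithelial markers in the files summed to at most 5.13 CPM.

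Most of the 39 genes were lower after OGTi. In DESeq2 with the replicate as a block, 32 of 39 genes (82.1%) were lower at an adjusted p (q) under 0.05, 2 (5.13%) were higher and 5 did not pass. Of all 14028 genes with a q, 24.0% were lower and 22.7% were higher, and 46.6% passed in either direction. The median log2 fold change of the 39 was -0.49, with a range from -1.37 for TPM4 to 0.69 for TLN2, against 0.00 over all genes tested. In bulk RNA, fewer cells of a type and less RNA of a gene per cell cannot be told apart.

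Because these genes are abundant, the same counts were made among genes averaging 1000 or more normalized counts, which held 38 of the 39. There, 33.1% of 5595 genes were lower and 25.6% were higher, with a median log2 fold change of -0.04. All 34 genes that passed were among those 38. A fall of at least 1.5-fold was called for 15 of 39 genes (38.5%), against 10.2% of all genes, and a rise of that size for 1 (2.56%), against 9.58%. Every OGTi library lay below every control library for 30 of 39 genes (76.9%), against 20.2% of all genes and 26.1% of the abundant ones. The opposite order was seen for 1 gene (2.56%), against 19.8% and 20.7%. Within same-numbered pairs, 34 genes were lower in 4 of 4 pairs and 2 were higher in 4 of 4. The matching shares of all genes were not counted.

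The 39 genes also took a smaller share of each OGTi library. They held 5.19%, 4.69%, 5.71% and 5.53% of all counts in control replicates 1 to 4 and 3.65%, 3.56%, 3.75% and 3.62% in OGTi replicates 1 to 4, with no overlap. Their summed normalized counts were 1430585 ± 154883 in control and 926314 ± 23314 in OGTi (SD, n = 4). ACTB, ACTG1, MYH9, FLNA and ACTN1, the members with the most counts, made up 62.5% of the net difference.

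**Figure D1:**
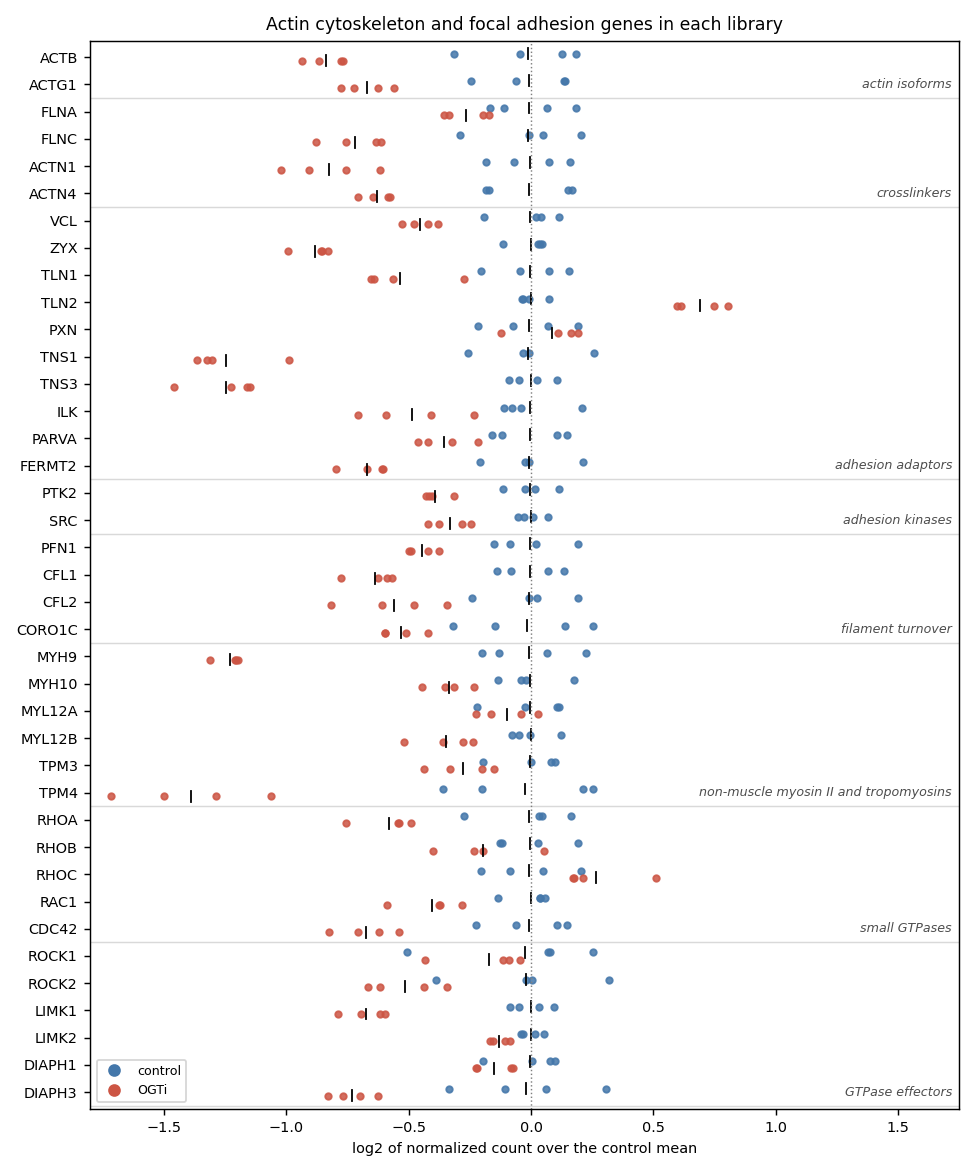
Log2 ratio of each library's normalized count to the control mean (horizontal axis) for the 39 genes, grouped by role, with 1 point per library in control and OGTi. The OGTi points lie below every control point for 30 genes and above for TLN2, and the groups overlap for the other 8 genes, among them RHOC, PXN, MYL12A and ROCK1.

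Promoter sequence was matched for 34 of the 39 genes, as RefSeq windows of 300 bases on GRCh38.p14. ACTB, PARVA, PTK2, SRC and RAC1 had no matched window and were not searched. Of the 34 searched, 4 held a CArG box, the element bound by serum response factor (SRF). This compares with 1.29% of all 27303 windows and 1.07% of the 10914 windows of tested genes. The 4 are ACTG1, FLNA, TPM4 and ROCK2. They are shown because SRF and its cofactors are known to act on cytoskeletal genes and were measured in the same libraries. Each line gives 90 bases around the match on the gene's own strand, 5′ to 3′, with the CArG box in capitals. The windows are chr17:81512844-81512933 (minus strand) for ACTG1, chrX:154374679-154374768 (minus) for FLNA, chr19:16067325-16067414 (plus) for TPM4 and chr2:11345461-11345550 (minus) for ROCK2.
ACTG1: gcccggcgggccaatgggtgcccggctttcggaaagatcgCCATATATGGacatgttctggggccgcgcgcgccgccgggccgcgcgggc
FLNA: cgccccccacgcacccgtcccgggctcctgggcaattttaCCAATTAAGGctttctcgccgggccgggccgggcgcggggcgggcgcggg
TPM4: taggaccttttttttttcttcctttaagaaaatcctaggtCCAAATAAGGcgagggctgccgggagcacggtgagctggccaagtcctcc
ROCK2: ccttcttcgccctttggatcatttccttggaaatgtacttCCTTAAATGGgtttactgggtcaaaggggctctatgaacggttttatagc

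Counted from the annotated start site, the matches begin at -94 in ACTG1, -94 in FLNA, -173 in TPM4 and -73 in ROCK2. All 4 genes were lower in OGTi, with log2 fold changes of -0.66, -0.26, -1.37 and -0.49 in that order. Of all 39 genes, 32 (82.1%) were lower, with a median of -0.49. A link between the box and the falls was not tested. Other motifs were searched on both strands of the same windows. The TEAD motif CATTCC was in 7 of 34 (20.6%), against 10.9% of the windows of tested genes, and the AP-1 motif TGANTCA was in 1 (2.94%), against 4.76%. The GC-rich SP/KLF motif GGGCGG was in 31 (91.2%), against 44.6% of all windows and 69.2% of those of tested genes. A match describes these letters only and is not evidence of a bound site.

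Both cytoplasmic actins fell. ACTB (β-actin, chr7:5526409-5563902 on GRCh38, GENCODE 44) had 224638, 186269, 263344 and 253090 normalized counts in control replicates 1 to 4 and 127150, 121033, 136235 and 135396 in OGTi. All OGTi libraries were lower, and the log2 fold change was -0.82 ± 0.07 (± SE, as for every fold change; DESeq2 q = 3.95e-30), or 56.5% of control. Its share of all counts was 0.852%, 0.703%, 0.948% and 0.919% in control against 0.503%, 0.472%, 0.532% and 0.540% in OGTi. ACTG1 (γ-actin, chr17:81509413-81523847) had 190801, 167814, 218623 and 219174 in control and 116075, 129175, 134866 and 120609 in OGTi, again without overlap. It fell by 0.66 ± 0.08 log2 units (q = 6.45e-16), to 63.1% of control. On the scale of normalized counts per kilobase of transcript, these were the most abundant of the 39 genes, ACTB at 127900 ± 19000 in control and 71720 ± 3990 in OGTi and ACTG1 at 103800 and 65230 (SD, n = 4).

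The coding sequences of the actins are close, which bears on how reads could be divided between them. Over 1128 coding bases of the GENCODE 44 transcripts, ACTB and ACTG1 differed at 99, an identity of 91.2%, and the longest identical run was 59 bases. Counts of both were not whole numbers in 6 of 8 libraries, as the estimation gives where reads are shared between genes. Which genes shared these reads was not examined. The start of each coding sequence is shown from the ATG, with the 10 of 60 bases that differ in capitals.
ACTB: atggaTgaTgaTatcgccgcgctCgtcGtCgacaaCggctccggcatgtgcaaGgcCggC
ACTG1: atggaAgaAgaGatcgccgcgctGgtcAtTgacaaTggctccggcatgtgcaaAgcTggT

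All 4 crosslinkers fell, with a median log2 fold change of -0.66. FLNC (filamin C, a crosslinker of filaments into networks, chr7:128830406-128859274) had 79975, 65706, 92711 and 83135 normalized counts in control and 52497, 47580, 51863 and 43721 in OGTi. The groups did not overlap, and FLNC fell by 0.71 ± 0.08 log2 units (q = 1.63e-17). Its more abundant relative FLNA went from 241400 ± 27100 to 201300 ± 13100 (SD, n = 4), a log2 fold change of -0.26 ± 0.07 (q = 0.00119). The α-actinin gene ACTN1 (chr14:68874128-68979440), which bundles filaments and anchors them at adhesions, had 85264, 78664, 99855 and 94076 in control and 58295, 53050, 47671 and 44067 in OGTi. ACTN1 fell by 0.82 ± 0.17 log2 units (q = 4.71e-06), with the largest SE of the 39 genes, and its fold change within pairs ranged from log2 -1.09 to -0.55. ACTN4 fell by 0.62 ± 0.08 log2 units (q = 7.6e-15), also without overlap.

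Among the 10 adhesion adaptors, 8 fell, TLN2 rose and PXN did not pass. The largest falls were of the tensins, which bind integrin tails and actin. TNS1 (chr2:217799588-218033982) had 4630, 3961, 5657 and 4707 normalized counts in control and 2391, 1839, 1919 and 1893 in OGTi. TNS3 (chr7:47275154-47582558) had 2151, 2212, 2458 and 2328 in control and 979, 831, 1033 and 1024 in OGTi. Both stood below every control library, with log2 fold changes of -1.23 ± 0.10 for TNS1 (q = 2.08e-36) and -1.25 ± 0.09 for TNS3 (q = 2.82e-45), or 42.5% and 42.2% of control. ZYX (zyxin, a LIM protein of tensed adhesions and stress fibres, chr7:143381295-143391111) had 44121, 39873, 44541 and 44304 in control and 23935, 23854, 24325 and 21711 in OGTi. It fell by 0.88 ± 0.07 log2 units (q = 3.71e-37), and both groups were tight.

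The 2 talins moved in opposite directions. TLN1, which links integrins to actin and activates them, had 31566, 24607, 29800 and 27474 normalized counts in control and 23436, 18008, 19170 and 18178 in OGTi, a log2 fold change of -0.53 ± 0.07 (q = 2.08e-14). TLN2 (talin 2, chr15:62390526-62844631) had 3100, 3091, 3333 and 3154 in control and 5315, 5536, 4842 and 4797 in OGTi. TLN2 was higher in every OGTi library, by 0.69 ± 0.08 log2 units (q = 7.43e-18), or 161% of control. It remained the scarcer talin per kilobase, at 426.1 ± 30.1 in OGTi against 2284 ± 295 for TLN1 (SD, n = 4).

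Kindlin-2, encoded by FERMT2 (chr14:52857268-52952435), cooperates with talin on integrin tails. It had 6424, 5597, 7481 and 6359 normalized counts in control and 3717, 4061, 4249 and 4239 in OGTi, and fell by 0.66 ± 0.08 log2 units without overlap (q = 8.51e-16). Vinculin (VCL), which reinforces the talin-actin link, fell by 0.45 ± 0.07 log2 units (q = 1.13e-10). The ILK and PARVA genes, whose products form a complex that ties integrins to actin, had log2 fold changes of -0.48 ± 0.07 (q = 7.08e-10) and -0.35 ± 0.07 (q = 1.59e-06). PXN (paxillin, a scaffold for adhesion signalling) had 12537, 13862, 15302 and 16654 in control and 16667, 13410, 15769 and 16340 in OGTi. The PXN groups overlapped, with a log2 fold change of 0.09 ± 0.08 (q = 0.362), and OGTi was higher in 2 of 4 pairs.

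Of the kinases at adhesions, PTK2 (focal adhesion kinase) fell by 0.39 ± 0.08 log2 units (q = 7.28e-06) and SRC fell by 0.33 ± 0.08 log2 units (q = 6.62e-05). PTK2 ranged from 2343 to 2743 normalized counts in control and from 1883 to 2037 in OGTi. Neither gene's groups overlapped.

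All 4 genes of filament turnover fell, with a median log2 fold change of -0.53. CFL1 (cofilin 1, which severs old filaments) had 59101, 48928, 50922 and 56534 normalized counts in control and 35835, 31453, 34961 and 36382 in OGTi. It fell by 0.63 ± 0.06 log2 units without overlap (q = 5.76e-23). PFN1 (profilin 1, which delivers monomers to growing ends) had 31442, 25869, 24744 and 27912 in control and 20528, 19591, 19447 and 21175 in OGTi, a log2 fold change of -0.44 ± 0.07 (q = 8.68e-10). The less abundant CFL2 fell by 0.55 ± 0.08 log2 units (q = 5.63e-12) and CORO1C, a coronin of branched networks, fell by 0.51 ± 0.08 log2 units (q = 1.27e-09).

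**Figure D2:**
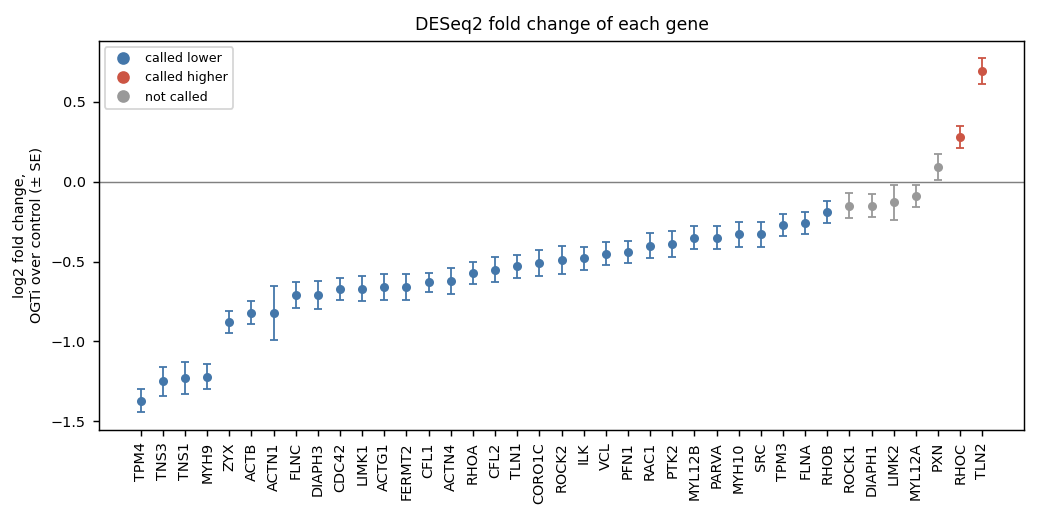
DESeq2 log2 fold changes, OGTi relative to control, are plotted on the vertical axis with bars of 1 SE for the 39 genes, ordered from lowest to highest and coloured by call. TPM4, TNS3, TNS1 and MYH9 lie lowest at -1.37, -1.25, -1.23 and -1.22, and TLN2 and RHOC are the called genes above 0.

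The contractile genes held the lowest fold change of the set and also a gene that did not pass. TPM4 (tropomyosin 4, which coats filaments, chr19:16067021-16103002) had 44875, 40224, 61403 and 59709 normalized counts in control and 18230, 15696, 21145 and 24699 in OGTi. It fell by 1.37 ± 0.07 log2 units (q = 3.33e-88) with no overlap, a 2.58-fold difference. MYH9 (the heavy chain of non-muscle myosin IIA, chr22:36281280-36388010) had 96073, 91670, 122788 and 110139 in control and 45524, 45624, 45817 and 42351 in OGTi. MYH9 fell by 1.22 ± 0.08 log2 units (q = 1.06e-50), to 42.9% of control.

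The other myosin and tropomyosin genes stood nearer to their control levels. MYH10 (myosin IIB) fell by 0.33 ± 0.08 log2 units (q = 0.000135), and TPM3 fell by 0.27 ± 0.07 log2 units (q = 0.000233) with groups that overlapped. TPM3 counts were not whole numbers in 8 of 8 libraries, and which genes shared these reads was not examined. The regulatory light chain gene MYL12B fell by 0.35 ± 0.07 log2 units (q = 1.09e-05). MYL12A had 8310, 7247, 9082 and 9130 normalized counts in control and 7230, 7538, 8212 and 8619 in OGTi, overlapping, with a log2 fold change of -0.09 ± 0.07 (q = 0.282). The coding sequences of MYL12A and MYL12B are 95.2% identical, with an identical run of 77 bases, which bears on how reads could be divided between them. Counts of each were not whole numbers in 2 of 8 libraries. How reads were divided between these genes was not examined.

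Among the 5 small GTPases, 4 fell and RHOC rose. CDC42 (which directs filopodia and polarity, chr1:22052627-22101360) had 7831, 6999, 9050 and 8803 normalized counts in control and 5002, 4607, 5308 and 5625 in OGTi, and fell by 0.67 ± 0.07 log2 units (q = 5.39e-22). RHOA (which drives stress fibres) had 32656, 24087, 29841 and 30036 in control and 20045, 17287, 20020 and 20779 in OGTi, and fell by 0.57 ± 0.07 log2 units (q = 3.42e-17). Neither pair of groups overlapped. RAC1, which drives lamellipodia, fell by 0.40 ± 0.08 log2 units (q = 8.36e-07).

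RHOC had 6332, 5184, 4777 and 5694 normalized counts in control and 7837, 6362, 6203 and 6194 in OGTi. Control replicate 1 lay within the OGTi range, but OGTi was higher in 4 of 4 same-numbered pairs, and the log2 fold change was 0.28 ± 0.07 (q = 0.000393). RHOB overlapped between groups and fell by 0.19 ± 0.07 log2 units (q = 0.0203), a call that was lost without the replicate block (q = 0.166) and without replicate 1 (q = 0.0732), replicate 2 (q = 0.0745) or replicate 4 (q = 0.171).

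Of the 6 effectors, 3 fell and 3 did not pass. LIMK1 (a LIM kinase that inactivates cofilin, chr7:74082933-74122525) had 2952, 2876, 3125 and 3258 normalized counts in control and 2016, 1769, 1992 and 1886 in OGTi, and fell by 0.67 ± 0.08 log2 units (q = 9.01e-17). DIAPH3 (a formin that elongates filaments, chr13:59665583-60163928) had 3626, 4255, 5667 and 4776 in control and 2580, 2825, 2971 and 2689 in OGTi, and fell by 0.71 ± 0.09 log2 units (q = 2.78e-15). The groups of each were apart. DIAPH3 counts were not whole numbers in 7 of 8 libraries. ROCK2, a kinase that raises myosin phosphorylation, had 3091, 3991, 5048 and 4059 in control and 2552, 2639, 2990 and 3193 in OGTi, and fell by 0.49 ± 0.09 log2 units (q = 2.11e-07) although its highest OGTi library exceeded its lowest control library.

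The effectors that did not pass were ROCK1, LIMK2 and DIAPH1. ROCK1 had 2062, 3085, 3487 and 3073 normalized counts in control and 2167, 2701, 2747 and 2833 in OGTi, overlapping, with a log2 fold change of -0.15 ± 0.08 (q = 0.148). Control replicate 1 was its lowest library, and without that replicate the fold change was -0.22 and passed (q = 0.0323). LIMK2 had 543, 526, 558 and 523 in control and 506, 500, 479 and 482 in OGTi, the lowest counts of the 39 genes, with a log2 fold change of -0.13 ± 0.11 (q = 0.377) although its groups did not overlap. DIAPH1 had a log2 fold change of -0.15 ± 0.07 (q = 0.0613).

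**Figure D3:**
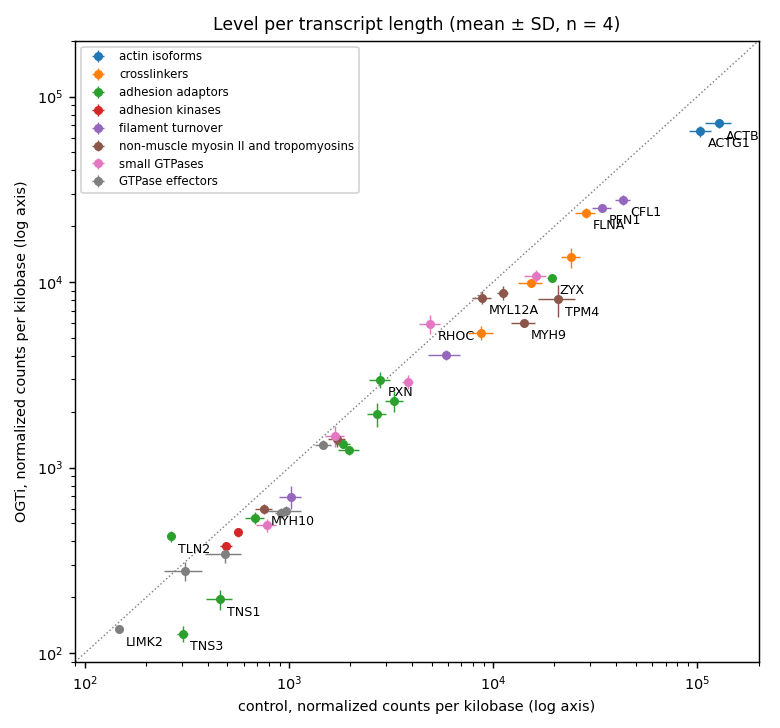
Mean normalized count per kilobase of transcript in OGTi (vertical log axis) against control (horizontal log axis) for the 39 genes, coloured by role, with bars of 1 SD (n = 4) and a dotted line of equal levels. ACTB and ACTG1 lead at 127900 and 103800 in control, LIMK2 is lowest at 146.6, and TLN2, at 263.6 in control and 426.1 in OGTi, lies above the line.

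Since close relatives moved by different amounts, the log2 ratio within each of 16 pairs of related genes was taken in every library. The TLN1 to TLN2 ratio was 3.16 ± 0.15 in control and 1.94 ± 0.18 in OGTi on the log2 scale (SD, n = 4), a difference of -1.22. The TPM3 to TPM4 ratio was -2.07 ± 0.19 and -0.98 ± 0.24, a difference of 1.09, and the MYH9 to MYH10 ratio was 4.17 ± 0.11 and 3.28 ± 0.05, a difference of -0.89. For RHOA to RHOC the difference was -0.85, and for LIMK1 to LIMK2 it was -0.54.

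In 8 of the 16 pairs the groups did not overlap. The matching share over other pairs of genes was not counted. Of all single genes, 20.2% lay lower and 19.8% lay higher without overlap, so such separation was common. Ratios that do not overlap give the smallest p that 4 against 4 libraries allow in a two-sided exact permutation test, 0.0286. After Benjamini-Hochberg adjustment over the 16 pairs this became 0.0571, so 0 of 16 passed 0.05 and 8 passed before adjustment. The remaining 3 of those 8 were FLNA to FLNC with a difference of 0.45, ROCK1 to ROCK2 with 0.35 and RAC1 to CDC42 with 0.26. The ratio of ACTB to ACTG1 was 0.22 ± 0.05 in control and 0.05 ± 0.12 in OGTi, a difference of -0.16 (exact permutation p = 0.0571, adjusted p = 0.0831). The TNS1 to TNS3 ratio differed by 0.01 (exact permutation p = 0.943).

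**Figure D4:**
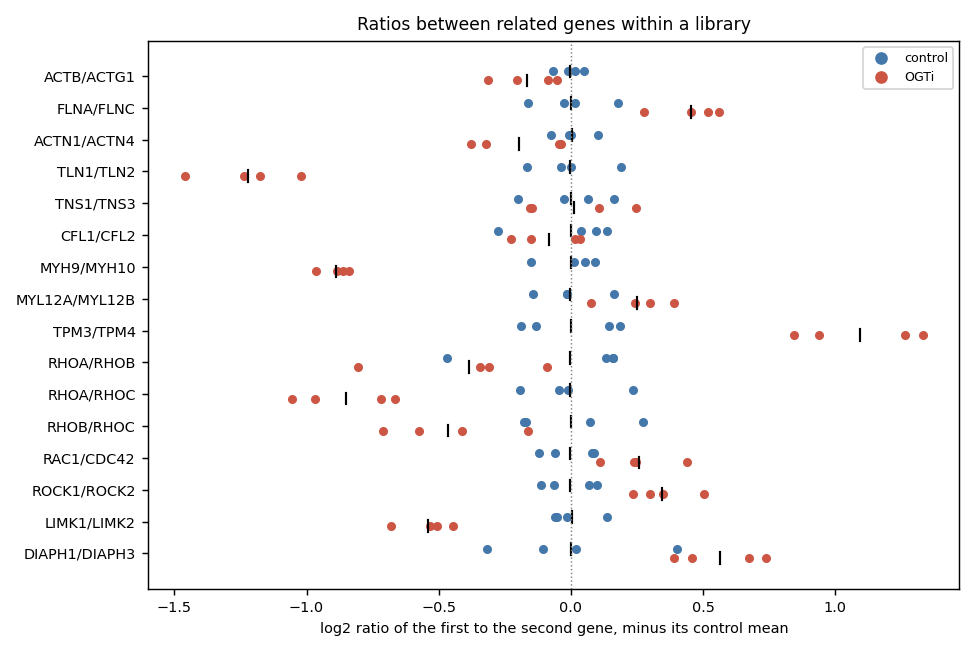
Log2 ratio of normalized counts within each of the 16 related pairs, less the pair's control mean (horizontal axis), with 1 point per library and a tick at each group's mean. OGTi lies lowest for TLN1 to TLN2, by -1.22 on average, and highest for TPM3 to TPM4, by 1.09, each without overlap.

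Other genes of the same pathways were taken from 9 lists with 146 genes, also chosen with earlier results of these data known. Of the 144 with a q, 78 (54.2%) were lower, 21 (14.6%) were higher and 45 did not pass. Their median log2 fold change was -0.24. Most of them, 126, averaged 1000 or more normalized counts, so the shares are to be read against those of abundant genes, 33.1% lower and 25.6% higher, as well as those of all genes. The share that was lower was largest among 13 other crosslinkers and membrane linkers. There, 11 (84.6%) fell, SPTAN1 (7.69%) rose and 1 did not pass (median -0.38). TAGLN2, a transgelin that binds filaments, fell from 14370 to 5971 in normalized counts, with a log2 fold change of -1.27 ± 0.06 (q = 3.13e-88), and MARCKS, which links actin to the plasma membrane, fell by 0.99 log2 units (q = 1.46e-26).

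Of 20 genes of the Arp2/3 complex, which nucleates branched filaments, and its activators, 14 fell, 3 rose and 3 did not pass (median -0.29). ACTR3, a core subunit, fell by 0.68 ± 0.07 log2 units (q = 5.04e-21) and CYFIP2, of the WAVE complex, fell by 1.37 ± 0.11 log2 units (q = 2.25e-32), whereas ARPC1B, WASF1 and ABI1 rose. Among 13 other formins and Ena/VASP proteins, 5 (38.5%) were lower and 4 (30.8%) were higher (median -0.08). These shares were near those of abundant genes, 33.1% and 25.6%. FHOD1 rose by 0.84 ± 0.07 log2 units (q = 5.43e-28), DAAM1, FMNL2 and FMNL3 also rose, and FMNL1 fell by 1.09 ± 0.11 log2 units (q = 4.15e-22). Of 18 capping, severing and monomer-binding genes, 6 (33.3%) fell, about the share of abundant genes, GSN and CORO1B (11.1%) rose and 10 did not pass (median -0.16). CAPZB, a capping protein subunit, was at log2 -0.47 (q = 1.15e-11) and TMSB4X, which sequesters monomers, was at log2 -0.46 (q = 1.39e-11).

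Of 30 other adhesion adaptors and LIM proteins, 17 fell, 3 rose and 10 did not pass (median -0.31). SORBS3, which encodes the vinculin-binding adaptor vinexin, fell from 10250 to 5212 in normalized counts, with a log2 fold change of -0.98 ± 0.07 (q = 3.05e-46). Of 12 adhesion signalling genes, 4 (33.3%) fell, also about the share of abundant genes, GIT1 and ELMO2 (16.7%) rose and 6 did not pass (median -0.07). The phosphatase gene PTPN11 fell by 0.44 log2 units (q = 5.58e-07) and the scaffold gene GIT1 rose by 0.40 log2 units (q = 2.85e-08).

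Of 24 exchange factors, GTPase-activating proteins and other regulators of small GTPases, 11 (45.8%) fell, 5 (20.8%) rose and 8 did not pass (median -0.19). Among abundant genes the shares were 33.1% lower and 25.6% higher. The CDC42 effectors CDC42EP3 and CDC42EP1 fell, with log2 fold changes of -0.92 (q = 3.64e-43) and -0.97 (q = 1.6e-32). The 5 that rose were ARHGEF2, TIAM1, ARHGAP18, CDC42EP2 and RND1, an atypical small GTPase, which went from 19.44 ± 6.61 to 95.89 ± 16.7 normalized counts (SD, n = 4), a log2 fold change of 2.33 ± 0.34 (q = 4.11e-11). Of 11 genes for parts of myosin II or for control of its light chains, 8 (72.7%) fell, among them the heavy chain gene MYH14. PPP1R12C (9.09%) rose and 2 did not pass (median -0.38). MYLK, the myosin light chain kinase gene, fell from 9729 to 4903 in normalized counts, with a log2 fold change of -0.99 ± 0.07 (q = 3.16e-47), and the essential light chain gene MYL6 fell by 0.69 log2 units (q = 5.74e-18). Of SRF and its 2 actin-regulated cofactors, 2 fell and 1 did not pass (median -0.54). SRF itself fell from 6079 ± 417 to 3999 ± 257 (SD, n = 4), a log2 fold change of -0.60 ± 0.08 (q = 1.81e-13). The cofactor MRTFB fell by 0.54 ± 0.12 log2 units (q = 5.28e-05), while MRTFA, at log2 -0.01 ± 0.08, did not pass (q = 0.928).

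**Figure D5:**
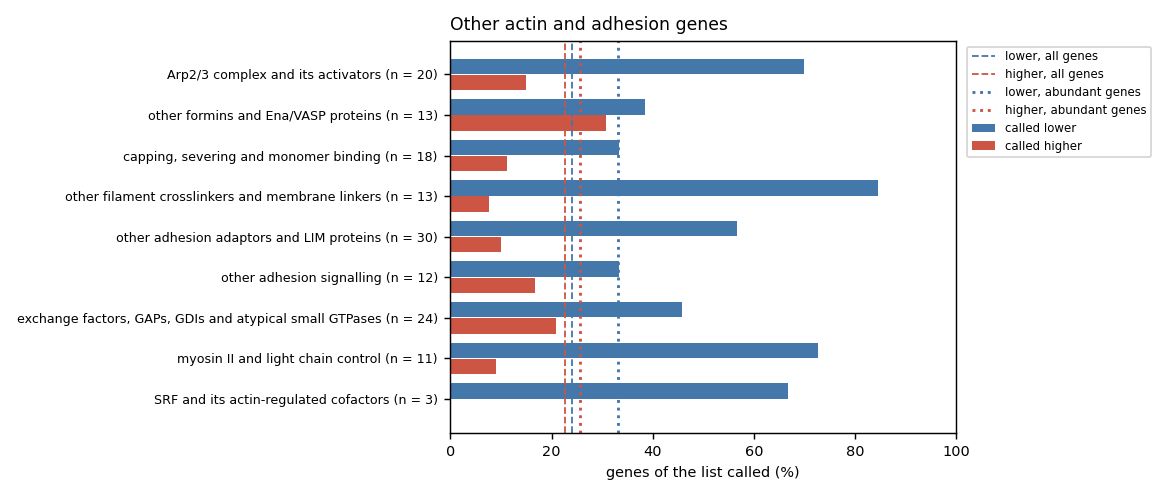
Percent of the genes of each of the 9 other lists called lower and called higher in OGTi (horizontal axis, bars from 0), with vertical lines at the shares over all genes (dashed, 24.0% lower and 22.7% higher) and over genes averaging 1000 or more normalized counts (dotted, 33.1% and 25.6%). The lower bar is longest for other crosslinkers and membrane linkers at 84.6%, and for capping genes and adhesion signalling it stands at 33.3%, about the share of abundant genes.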

How the data were processed

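RNA-seq libraries of LX-2 cells given DMSO or OSMI-1, 4 each, were analysed from gene-level expected counts that the authors deposited, with 1 file per library. Per the labels and the methods of the study, the authors aligned paired-end reads of stranded poly(A) libraries to hg38 with Bowtie2 2.3.5.1 and estimated the counts with RSEM 1.3.1, which divides reads that match several genes. From 12.9% to 16.3% of values per library were not whole numbers and were rounded. A deposited table of the authors' own comparison (means, fold changes, standard errors and p-values) was not used. Depth was 24166756 to 28201215 counts per library.

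Genes with a total of at least 10 counts (14895) were fitted in DESeq2 1.42.0 (R 4.3.3) as replicate number plus treatment. A Wald test gave Benjamini-Hochberg adjusted p-values (q) over all genes, of which 14028 had a value, and q under 0.05 was called. The replicates are independent experiments, and per the study's methods a treated and a control sample with the same number form a pair. Deviations of same-numbered libraries from their group means correlated at 0.372, 0.391, 0.165 and 0.327 over 10994 genes, but control 3 correlated more with OGTi 4 (0.343), and control 4 with OGTi 3 at 0.255, so the correlations do not single out numbers 3 and 4.

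The members and lists were chosen with earlier results of these data known. Every library's value and the coordinates were given for ACTB, ACTG1 and the 14 called members with the largest absolute log2 fold change (mean of at least 100), and the 2 called genes with the largest Wald statistic were named from each other list, with 1 result not reported here. TLN1, PFN1, CFL1, RHOA, RHOC, PXN, MYL12A, ROCK1, ROCK2 and LIMK2 by library, and MRTFA, MYH14 and the genes of the other lists named as risen, were added after their values were seen. Ratios of related genes used log2(normalized count + 1) and two-sided exact permutation tests over libraries. Levels per kilobase used MANE Select transcripts of GENCODE 44. Alternatives were no block, edgeR 4.0.16 with and without the block, TMM and upper-quartile scaling in DESeq2, no filter, a filter of 1 CPM in 4 libraries, pseudocounts of 0.5 and 10, sign flips within pairs and leaving out each replicate. Proteins, and the genes DIAPH2 and PDLIM4, were not analysed here.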

Additional observations from a re-analysis of the deposited data

Results flagged for a closer look

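Among 78 sets of 4 libraries (39 genes in each group), 5 had a library that stood apart from the other 3 by more than Dixon's 95% critical value for 4 samples, where 3.9 are expected by chance at 1 in 20. ZYX had 39873 normalized counts in control replicate 2 and 44121 to 44541 in the other control libraries, a gap of 0.910 of the range. RAC1 had 8030 in the same library and 9032 to 9167 in the others (0.881). TNS1 had 2391 in OGTi replicate 1 and 1839 to 1919 in the others (0.855), and RHOC had 7837 in that library against 6194 to 6362 (0.897). MYH9 had 42351 in OGTi replicate 4 and 45524 to 45817 in the others (0.915). All 5 genes were called the same way without each replicate in turn.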

How the results depend on the processing

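Of the 34 called genes, 33 were called the same way under all 11 alternatives, the exception being RHOB. Members called lower numbered 32 with the replicate block, 31 without the replicate block in DESeq2 or edgeR, 32 in edgeR with it, and 31 to 32 when each replicate was left out, with 2 called higher throughout. Other pathway genes called lower numbered 78, 72 without the replicate block and 71 to 75 leaving out a replicate, and those called higher numbered 21, then 20 and 16 to 19 in those settings. edgeR gave 77 lower and 21 higher with the block and 70 and 19 without it. The block changed no member's call but that of RHOB. PXN, not called, went from a log2 fold change of 0.09 to -0.01 without replicate 1, in which its control count was lowest, and lay between -0.01 and 0.14 over the replicates left out. The TNS1 to TNS3 ratio differed by -0.04 and -0.09 without replicates 1 and 2. No related pair passed 0.05 after adjustment with pseudocounts of 0.5 or 10, or by sign flips within pairs, where p cannot go below 0.125. Leaving out a replicate gives 3 against 3 libraries, where p cannot go below 0.1. TMM or upper-quartile scaling moved the median of all genes by at most 0.01 on the log2 scale. Depth limits LIMK2 most, the member with the fewest counts, and 9 members had counts that were not whole numbers, ACTB, ACTG1, TPM3 and DIAPH3 in 6 to 8 libraries and PARVA, PTK2, MYL12A, MYL12B and LIMK2 in 1 or 2.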
